A study of Rattus norvegicus with 11 samples.

Results

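The comparison described here set an endothelial cell line (EC) exposed to exosomes of the rat pancreatic adenocarcinoma line AS against the same line at baseline, with 1 Agilent array on each side. These 2 arrays, chosen by their titles, are 2 of the 11 arrays of the series. Exosomes are small membrane vesicles that cells release and that carry protein and RNA to other cells. In the same line, 2 further arrays followed exosomes of AS cells expressing the tetraspanin Tspan8 (ASTspan8), and their difference from each other is the background for the spread between arrays. A second line, labelled as endothelial fibroblasts (RF), had 1 array after AS exosomes and 1 at baseline, and its baseline array carries an endothelial source name beside that label. The exosome dose and the exposure time are not given in the sources used here, and the labels name one medium with serum and G418 for the cell lines. No test was made of 1 array against 1, so every difference below is a description of these arrays, on the log2 scale of the intensity, where 1 is 2-fold. In bulk RNA, fewer cells expressing a gene and less RNA per cell cannot be told apart.

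Several transcript programmes help in reading these arrays. Immediate early genes, such as Fos, Egr1 and Nr4a1, are switched on within minutes by growth factors, serum or stress without new protein synthesis, and their products include transcription factors and the inhibitors that end the signal. ATF4 is the transcription factor through which cells answer amino acid shortage and other stresses, by raising amino acid transporters, amino acid synthesis enzymes and tRNA synthetases. Acute phase and complement genes are mostly known from liver, and endothelial and stromal cells also make several of them under inflammatory signals.

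The marker genes of the EC line went against its label in part, with most fibroblast markers high and most endothelial markers low on both arrays. Of 28 fibroblast markers, 24 exceeded a log2 level of 9 on the AS array and 25 on the control array, with summed levels of 20.39 and 20.34 log2. Of 22 endothelial markers measured, 2 did so on the AS array and 3 on the control array, with summed levels of 12.34 on the AS array, 12.67 on the control array, and 12.65 and 12.74 on the ASTspan8 arrays. Cdh5, the junctional cadherin of endothelium, lay at 7.97 on the AS array and 7.87 on the control array, and Pecam1, a junctional adhesion molecule, at 7.33 and 7.5. Kdr, the main VEGF receptor, lay at 6.34 on the AS array and 6.52 on the control array, where the array median was 7.29 and 7.30. Cdh5 and Pecam1 lay above that median on both arrays. The markers over log2 9 were Eng, at 9.95 on the AS array and 10.09 on the control array, and Egfl7, at 10.44 and 10.75. Vwf exceeded it on the control array only, at 8.88 on the AS array and 10.44 on the control array. This was its brightest probe, and its other probes differed by 0.37 and 0.00. The line is therefore called EC here as a label. Epithelial markers summed to 12.68 log2 on the AS array and 12.65 on the control array, and leukocyte markers to 12.40 and 12.36, with 2 of 26 and 1 of 19 over log2 9 on both. Of 25 epithelial markers past a filter on dim signal, Ovol1 (−1.73, but 0.09 at its other probe) and Krt7 (−1.43) were at least 2-fold lower on the AS array. At least 2-fold higher were 0, and among all genes 1.13% were at least 2-fold lower. Tspan8 lay at 6.38 on the AS array and 6.34 on the control array, and Cd44, the hyaluronan receptor, at 13.70 and 13.74.

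Far more probes were lower than higher after AS exosomes. Of 18619 probes that passed a filter on dim signal, 18 (0.0967%) were at least 2-fold higher on the AS array and 191 (1.03%) at least 2-fold lower, while the 2 ASTspan8 arrays differed at least 2-fold from each other at 9 probes (0.0483%). The differences between AS and control had an SD of 0.308 over probes and a median of 0.02, and those between the ASTspan8 arrays an SD of 0.144. Taken by gene, with the brightest probe of each past the filter, 125 of 11069 genes (1.13%) were lower by 2-fold or more and 15 (0.136%) higher. Of the 125 lower genes, 27 lay below the array's median on the AS array. Nothing in the labels says whether the 2 ASTspan8 arrays came from separate cultures, so their spread may be technical.

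**Figure D1:**
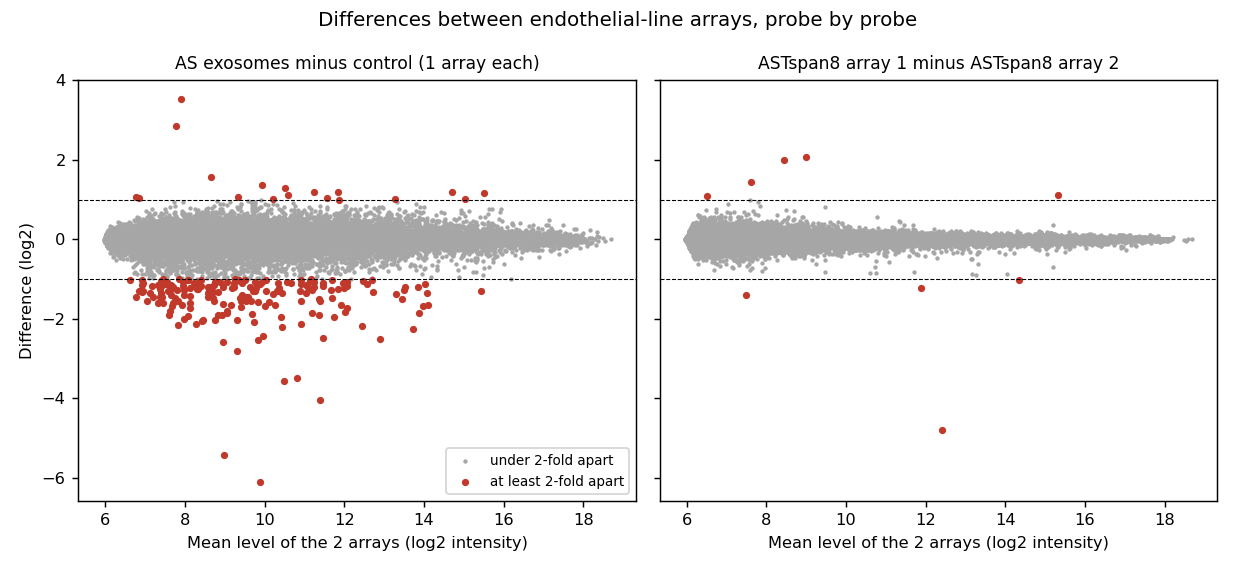
Difference in log2 intensity (vertical axis) against the mean level of the 2 arrays (horizontal axis), 1 point per probe past the filter, for AS exosomes minus control on the left and for ASTspan8 array 1 minus array 2 on the right. Red points are at least 2-fold apart: 18 higher and 191 lower on the left, 9 in all on the right.

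Which of the 4 EC arrays stood apart differed between genes. For 51 of the 125 lower genes (0.461% of all genes), both ASTspan8 arrays also lay at least 2-fold below control, so that the control array stood apart from the other 3. For 28 genes (0.253%) the AS array lay at least 2-fold below both ASTspan8 arrays as well as below control. Nr4a1 and Egr1 met both conditions, and 48 genes met neither. Of the 15 higher genes, the control array stood apart for 2 and the AS array for 5. Of the 15, 4 (Mettl7b, Six3, Eya4 and Sult1c2a) passed the filter through the AS array alone and so had to differ, as 3 of the 125 lower genes had to that passed it through the control array alone. The comparisons of AS and of ASTspan8 exosomes share the single control array, so an unusual control level would appear in both.

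The immediate early genes held the largest differences of the whole comparison. Of 47 listed genes 45 were on the array and 41 passed the filter, and their median difference was −1.23, beside 0.03 over all 11069 genes. Among them 24 were at least 2-fold lower on the AS array, against 1.13% of all genes, and 0 at least 2-fold higher. The control array was the highest of the 4 EC arrays for 35 of the 41, against 26.7% of all genes, and the AS array the lowest for 28, against 21.2% of all genes. For 15 members the control array stood apart from the other 3 and for 4 the AS array did.

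Upstream sequences of 4 of these genes are shown because they hold the elements through which such genes are known to be switched on. Each is the stretch from 150 bases to 1 base before the start of the gene, 5′ to 3′ on the gene's own strand, from RefSeq on rat assembly GRCr8. Capitals mark CArG boxes, the element of serum response factor, in Egr2 (chr20:21054442-21054591, minus strand) and Dusp5 (chr1:262543624-262543773, plus strand), and the full cyclic AMP response element TGACGTCA in Dusp1 (chr10:17184703-17184852, plus strand) and Areg (chr14:17265642-17265791, minus strand).
Egr2: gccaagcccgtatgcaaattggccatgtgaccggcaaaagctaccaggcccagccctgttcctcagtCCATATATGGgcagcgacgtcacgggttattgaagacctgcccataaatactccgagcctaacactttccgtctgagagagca
Dusp5: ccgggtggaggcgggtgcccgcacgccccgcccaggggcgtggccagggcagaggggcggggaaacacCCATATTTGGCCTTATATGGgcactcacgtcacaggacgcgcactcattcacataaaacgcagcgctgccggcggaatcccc
Dusp1: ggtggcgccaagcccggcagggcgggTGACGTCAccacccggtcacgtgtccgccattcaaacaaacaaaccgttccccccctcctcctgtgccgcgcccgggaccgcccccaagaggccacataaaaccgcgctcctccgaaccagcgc
Areg: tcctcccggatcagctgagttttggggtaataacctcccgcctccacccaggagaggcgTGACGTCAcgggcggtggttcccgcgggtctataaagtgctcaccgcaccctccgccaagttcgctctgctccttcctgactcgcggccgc

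The 4 sequences came from members with large differences. Over 250 upstream bases and both strands, TGACG, the shorter form contained in TGACGTCA, occurred in 21 of the 28 immediate early genes with a RefSeq promoter (75%), against 28.3% of the 9214 measured genes with one and 18.2% of all 33469 promoters. The 21 genes with it had a median difference of −1.56 and the 7 without it one of −0.37. Of the 41 members past the filter only these 28 had a promoter entry. Fos, Nr4a3, Csrnp1 and Atf3 had none, so the medians here leave them out. A CArG box occurred in 6 of the 28 (21.4%), against 1.23% of measured genes and 1.5% of all promoters. The median difference was −1.44 with a CArG box and −1.16 without one. TGACGTCA also occurred in 6 of the 28, against 2.88% of measured genes and 1.59% of all promoters. For this full element the order was reversed, at −1.08 with it and −1.24 without it, and 3 of the 6 genes with it were at least 2-fold lower. These motifs were chosen with the values known, and a match is a description of letters only.

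The AP-1 gene Fos, whose product pairs with Jun proteins, showed the largest difference. Its level was 6.85 on the AS array and 12.94 on the control array, with 7.46 and 7.51 on the ASTspan8 arrays, which made it 68.1-fold lower after AS exosomes (difference −6.09). The control array was high and the other 3 lay near or below the median of their arrays. Junb, another AP-1 subunit, lay at 14.79 on the AS array, 16.09 on the control array and 15.69 and 15.50 on the ASTspan8 arrays (difference −1.30). Jun, the main partner of Fos, differed by −0.03, Jund by 0.01 and Fosl1 by −0.59.

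Among the other transcription factors, the orphan nuclear receptor Nr4a1 lay at 9.38 on the AS array and 13.42 on the control array, with 10.60 and 10.67 on the ASTspan8 arrays (16.4-fold lower, difference −4.04). The AS array was the lowest and the control array the highest, each over 2-fold from the ASTspan8 pair. Its relatives Nr4a3 and Nr4a2 differed by −1.99 and −1.70, the second with −1.18 at its other probe. Egr1, a zinc finger factor induced by serum, lay at 11.65 on the AS array, 14.15 on the control array and 12.80 and 12.79 on the ASTspan8 arrays (difference −2.50), the same order as Nr4a1. Egr2, whose CArG box is printed above, lay at 7.91 on the AS array and 10.71 on the control array, with 8.13 and 8.16 on the ASTspan8 arrays (difference −2.80), so here the control array alone stood off. Atf3, a stress-induced repressor, lay at 6.75 on the AS array and 8.90 on the control array, with 7.93 and 7.81 between them (difference −2.15). Csrnp1 differed by −1.89 at its brightest probe and by −0.41 at its other probe.

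The feedback inhibitors were lower too, 7 of 8 at least 2-fold. Dusp1, a phosphatase that inactivates MAP kinases, lay at 7.66 on the AS array and 10.25 on the control array, with 7.60 and 7.62 on the ASTspan8 arrays (difference −2.59). Rgs2, which shortens G protein signals, lay at 8.56 on the AS array and 11.09 on the control array, with 8.76 and 8.73 on the ASTspan8 arrays (difference −2.53, and −2.03 at its other probe). Dusp5, a nuclear phosphatase for ERK, lay at 11.08 on the AS array and 12.74 on the control array, with 10.96 and 11 on the ASTspan8 arrays. In all 3 the treated arrays lay close together and the control array was the high one. A separate list of ERK pathway feedback genes had a median of −0.15 over 14 genes, with Phlda1 (−1.20) and Tgfa (−1.12, but −0.01 at its other probe) at least 2-fold lower.

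Of the secreted products, the EGF receptor ligand Areg lay at 8.75 on the AS array and 11.19 on the control array, with 9.12 and 9.07 on the ASTspan8 arrays (5.43-fold lower). Hbegf, another ligand of that receptor, differed by −1.02. Ccn1, a matrix protein of angiogenesis and wound repair, behaved differently: it lay at 13.27 on the AS array, 14.93 on the control array and 14.80 and 14.67 on the ASTspan8 arrays (difference −1.66), so that the AS array was the low one. Ccn2, its close relative, differed by −0.11, and Plk2, a kinase of the same list, by 0.41.

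**Figure D2:**
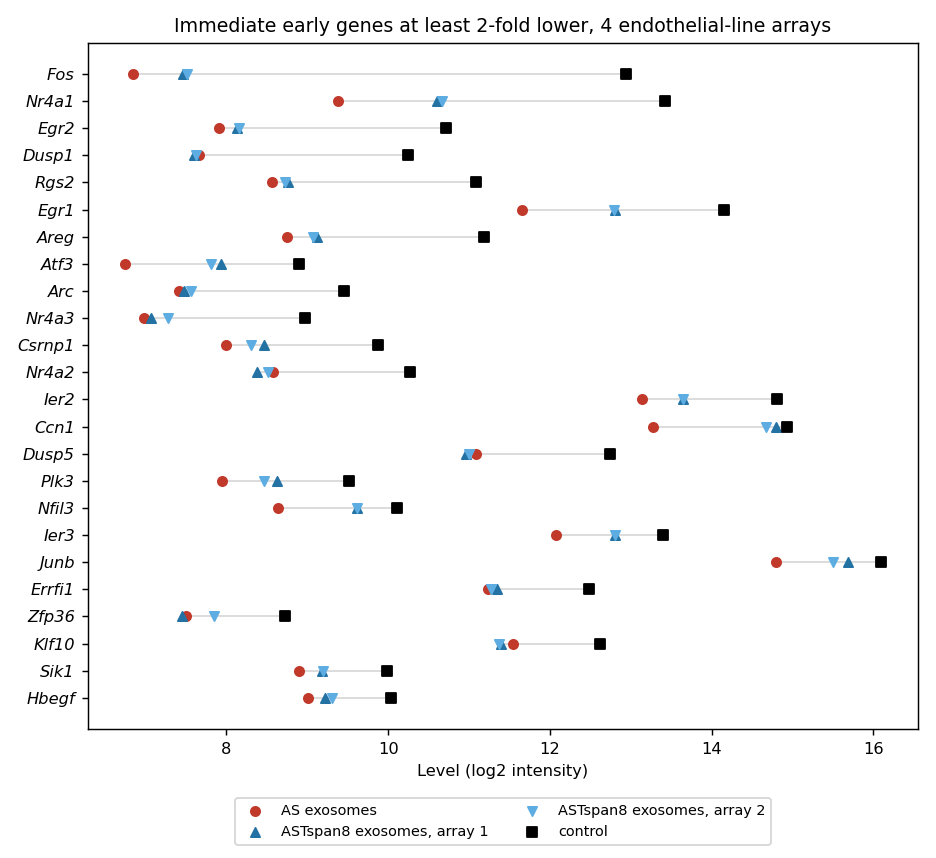
Log2 intensity (horizontal axis) of the 24 immediate early genes at least 2-fold lower after AS exosomes, 1 row per gene and 1 symbol per EC array: AS exosomes (red), the 2 ASTspan8 arrays (blue) and control (black). The control array lies to the right in every row, by 6.09 for Fos, and for most genes the ASTspan8 arrays lie nearer to the AS array, with Ccn1, Nfil3, Junb, Ier3 and Atf3 as exceptions.

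Genes of the ATF4 response were also lower as a group, by smaller amounts. Of 46 listed genes 45 were on the array and 44 passed the filter, with a median difference of −0.79. On the AS array 41 were below control, 2 above it and 11 at least 2-fold lower, against 54.2% above control and 1.13% at least 2-fold lower among all genes. The control array was the highest of the 4 for 38 of the 44, against 26.7% of all genes, and the AS array the lowest for 28, against 21.2%. Atf3 belongs to this list and to the immediate early list.

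The amino acid enzymes and transporters gave most of these values. Asns, asparagine synthetase, lay at 9.16 on the AS array and 10.84 on the control array, with 10.14 and 10.10 on the ASTspan8 arrays (3.20-fold lower). Psat1, an enzyme of serine synthesis, lay at 12.92 on the AS array and 14.13 on the control array, with 13.07 and 12.98 on the ASTspan8 arrays (2.31-fold lower). Slc7a5, a transporter of large neutral amino acids, lay at 8.53 on the AS array and 9.60 on the control array, with 8.55 on both ASTspan8 arrays. For Psat1 and Slc7a5 the 3 treated arrays lay close together, whereas for Asns the ASTspan8 arrays lay between AS and control. Mthfd2, a mitochondrial folate enzyme, differed by −1.10, Cth, of cysteine synthesis, by −1.39, and the tRNA synthetase Cars1 by −1. The cystine carrier Slc7a11 differed by −1.25 and the proline enzyme Pycr1 by −1.30, but their other probes by −0.04 and −0.06.

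The signalling members followed the same direction. Gdf15, a secreted stress hormone, lay at 9.06 on the AS array and 10.63 on the control array, with 9.22 and 9.28 on the ASTspan8 arrays (2.97-fold lower). Trib3, a pseudokinase induced by ATF4, lay at 8.02 on the AS array and 9.23 on the control array, with 8.4 and 8.53 on the ASTspan8 arrays. Atf4 itself differed by −0.76. Ddit3 (CHOP), also known as an ATF4 target, differed by 0.10 and Nupr1 by 0.00. The ER chaperones and unfolded protein response genes had a median of −0.13 over 20 genes with 0 at least 2-fold apart. Hspa5, the main ER chaperone, differed by −0.40.

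Upstream sequences of Pycr1 (chr10:106420813-106420962, minus strand) and Trib3 (chr3:161275534-161275683, minus strand), again 150 bases from RefSeq on GRCr8, are shown for the composite element TGATGNAA that ATF4 is known to bind with C/EBP proteins, in capitals, in Trib3 on the opposite strand.
Pycr1: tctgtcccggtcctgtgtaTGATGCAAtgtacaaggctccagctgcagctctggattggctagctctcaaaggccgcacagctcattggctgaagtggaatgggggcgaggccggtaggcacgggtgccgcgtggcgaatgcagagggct
Trib3: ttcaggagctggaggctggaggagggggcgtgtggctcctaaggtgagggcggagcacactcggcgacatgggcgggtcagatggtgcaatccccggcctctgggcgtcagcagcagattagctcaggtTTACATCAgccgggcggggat

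The element occurred in 11 of the 39 ATF4 list members with a promoter (28.2%), against 1.98% of measured genes and 3.4% of all promoters. The 11 members with it had a median difference of −0.64 and the 28 without it one of −0.82.

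The complement and acute phase genes differed in another way, since here the AS array was the one that stood off. Of 33 listed genes 31 were on the array and 23 passed the filter, with a median difference of −0.49. Of these 8 were at least 2-fold lower on the AS array, and for 6 of the 8 (Lcn2, C4a, C3, Hp, Cfb and Cp) the AS array also lay at least 2-fold below both ASTspan8 arrays. Among all genes the shares were 1.13% and 0.253%. The list's median was −0.12 without the filter on dim probes.

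Lcn2, a secreted iron carrier of the acute phase, lay at 8.72 on the AS array and 12.27 on the control array, with 11.73 on both ASTspan8 arrays, and was 11.7-fold lower than control (difference −3.55). C3, the central complement component, lay at 10.27 on the AS array and 12.13 on the control array, with 12.39 and 12.44 on the ASTspan8 arrays (difference −1.86). In both genes the control and ASTspan8 arrays lay together and the AS array alone was low. C4a, of the classical pathway, lay at 10.23 on the AS array, 12.71 on the control array and 13.77 and 13.72 on the ASTspan8 arrays (difference −2.48); its near-identical copy may share the probe, so the assignment is uncertain. Cfb, of the alternative pathway, lay at 8.81 on the AS array, 10.26 on the control array and 12 and 11.87 on the ASTspan8 arrays (difference −1.45). For these the AS array was the lowest and the ASTspan8 arrays the highest, with control between.

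The haemoglobin scavenger Hp lay at 8.33 on the AS array and 9.97 on the control array, with 10.10 and 10.07 on the ASTspan8 arrays (difference −1.64). The copper carrier Cp lay at 12.18 on the AS array and 13.20 on the control array, with 13.30 and 13.31 on the ASTspan8 arrays (difference −1.02). Lbp, which presents bacterial lipopolysaccharide, gave 8.28 on the AS array, 9.13 on the control array and 10.27 and 10.26 on the ASTspan8 arrays, a difference from control under 2-fold. Ptx3, a soluble pattern recognition protein, followed the pattern of the immediate early genes instead, at 10.62 on the AS array, 12.16 on the control array and 10.86 and 10.89 on the ASTspan8 arrays. Steap4 differed by −1.38 at its brightest probe and by −0.50 and 0.19 at its others. The first complement proteases C1r and C1s differed by −0.07 and −0.51, and Serpina3n by 0.46.

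**Figure D3:**
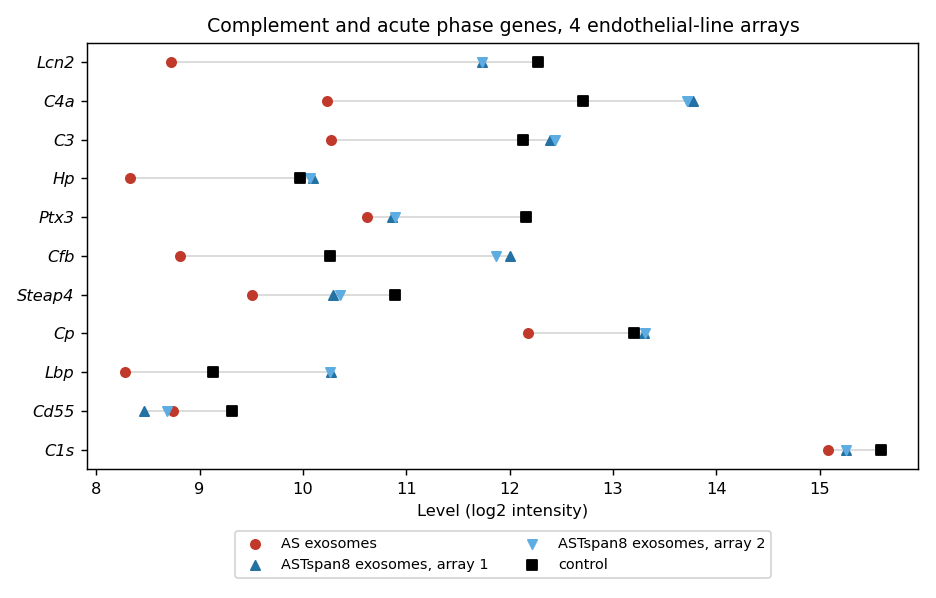
Log2 intensity (horizontal axis) of the complement and acute phase genes at least 0.5 log2 lower after AS exosomes, 1 row per gene and 1 symbol per EC array: AS exosomes (red), the 2 ASTspan8 arrays (blue) and control (black). The AS array lies to the left of the other 3 in every row but Cd55, and for C4a, C3, Hp, Cfb, Cp and Lbp the ASTspan8 arrays lie to the right of control.

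Other genes low on the AS array against the other 3 arrays belonged to no single list, and those given here were chosen after their values were seen. Angptl4, an inhibitor of lipoprotein lipase, lay at 11.34 on the AS array and 13.53 on the control array, with 13.93 and 13.91 on the ASTspan8 arrays (4.56-fold lower). Slit3, a guidance ligand of Robo receptors, lay at 7.89 on the AS array and 9.78 on the control array, with 10.20 and 10.30 on the ASTspan8 arrays. Clu, an extracellular chaperone, lay at 12.97 on the AS array and 14.81 on the control array, with 13.99 and 14.06 on the ASTspan8 arrays. For Angptl4 and Slit3 the ASTspan8 arrays exceeded control, and for Clu they lay between AS and control. Slpi, a protease inhibitor, differed from control by −2.03, the interleukin-1 decoy receptor Il1r2 by −1.90 and the interleukin-1 receptor antagonist Il1rn by −1.27. The mitochondrial superoxide dismutase Sod2 differed by −1.48 and the anticoagulant receptor Thbd by −1.07. The endothelial marker Vwf differed by −1.56 at its brightest probe, but by 0.37 and 0.00 at its other probes.

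A further set resembled the immediate early genes, with the control array high, and Thbs2 and F3 were intermediate. Adamts1, a matrix protease with antiangiogenic activity, lay at 12.61 on the AS array and 14.86 on the control array, with 13.07 and 13.10 on the ASTspan8 arrays (4.76-fold lower). Spp1 (osteopontin) lay at 13.40 on the AS array and 14.74 on the control array, with 13.54 and 13.55 on the ASTspan8 arrays. Il6, a cytokine, lay at 7.01 on the AS array and 8.48 on the control array, with 7.02 and 7.06 on the ASTspan8 arrays, so that the treated arrays were all below the array median. Ankrd1, a known target of YAP, differed by −2.14, Il1rl1 by −1.37 (−0.41 at its other probe) and the BMP target Id1 by −1.20. Thbs2, an antiangiogenic matrix protein, lay at 11.11 on the AS array and 12.93 on the control array, with 11.99 and 12 on the ASTspan8 arrays, and neither of the first 2 lay 2-fold from both ASTspan8 arrays. F3 (tissue factor) did likewise, at 11.20 on the AS array, 12.92 on the control array and 12.21 and 12.16 on the ASTspan8 arrays. For F3 the ASTspan8 arrays lay nearer to control than to AS.

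The 15 higher genes held few members of any one list, and the 2 with the largest differences were dim on every other EC array. Mettl7b, a thiol methyltransferase, lay at 9.67 on the AS array and 6.14 on the control array, with 6.03 and 6.27 on the ASTspan8 arrays (difference 3.53). Six3, a homeobox factor of eye and forebrain, lay at 9.20 on the AS array and 6.34 on the control array, with 6.17 and 6.15 on the ASTspan8 arrays (difference 2.86). Both were near the floor of 5.96 on the other EC arrays, where levels have no order, so no fold is given, and each was measured by a single probe. On the 2 arrays of ASTspan8 exosome RNA, Mettl7b lay at 6.63 and 6.23 and Six3 at 6.80 and 6.58. RNA of AS exosomes was not analysed here.

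Other genes high on the AS array were rnf141, spelt as in the files, and Fam25a. The first lay at 9.44 on the AS array and 7.88 on the control array, with 7.94 and 7.73 on the ASTspan8 arrays. Fam25a lay at 11.16 on the AS array and 9.88 on the control array, with 9.46 and 9.38 on the ASTspan8 arrays, and its other probe differed by 1.37. In both the AS array stood above the other 3. Eya4, Sult1c2a and Nnat were 2-fold higher at their brightest probe past the filter (1.03, 1.07 and 1.01) and not at their others, of which the highest gave 0.18. A brighter probe of Sult1c2a, which did not pass the filter, differed by 0.12.

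Several metabolic and signalling genes were about 2-fold higher on the AS array, with the ASTspan8 arrays between it and control or beside it. Aldh3a1, an aldehyde dehydrogenase, lay at 16.09 on the AS array and 14.92 on the control array, with 15.48 and 15.47 on the ASTspan8 arrays. Mt1, a metal-binding metallothionein, lay at 15.54 on the AS array and 14.52 on the control array, with 15.11 and 15.07 on the ASTspan8 arrays. Bmp2, a growth factor of the BMP family, lay at 11.15 on the AS array and 10.03 on the control array, with 11.10 and 11.02 on the ASTspan8 arrays. Scd, the fatty acid desaturase, differed by 1.07, Col14a1, a fibril-associated collagen, by 1.02 and the splicing regulator Rbfox1 by 1.20.

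Mitotic genes were slightly but uniformly higher on the AS array. All 34 past the filter, of 37 listed and 35 on the array, were above control, against 54.2% of all genes, with a median difference of 0.54 and a range of 0.05 (Cdc25c) to 0.85 (Kif20a). None was 2-fold apart. The AS array was the highest of the 4 EC arrays for 33 of the 34, against 26.8% of all genes, the exception being Nek2, and the median distance between the ASTspan8 arrays was 0.06. The control array was the lowest of the 4 for 4 of them, against 32.5% of all genes.

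Plk1, the kinase that drives mitotic entry, lay at 13.20 on the AS array and 12.46 on the control array, with 12.50 and 12.51 on the ASTspan8 arrays. Kif20a, a kinesin of cytokinesis, lay at 12.98 on the AS array and 12.13 on the control array, with 12.14 and 12.10 on the ASTspan8 arrays. Ccna2, cyclin A, lay at 12.46 on the AS array and 11.78 on the control array, with 11.64 and 11.63 on the ASTspan8 arrays. In these 3 the control and ASTspan8 arrays lay close together and the AS array above them. Over the whole list, the mean of the ASTspan8 arrays differed from control by −0.23 at the median. Cdc20, which activates the anaphase-promoting complex, differed by 0.60, Top2a, the topoisomerase of chromosome segregation, by 0.59 and Cdk1 by 0.45. The 32 genes of DNA replication and the G1/S step had a smaller median of 0.19, with 28 above control and the AS array highest for 15, against 54.2% and 26.8% of all genes.

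Upstream sequences of Cdc20 (chr5:137255800-137255949, minus strand) and Top2a (chr10:84473094-84473243, minus strand), 150 bases from RefSeq on GRCr8, are shown because both hold the pair of elements known from mitotic genes, the CCAAT box of NF-Y and the cell cycle element TTTGAA, in capitals on either strand.
Cdc20: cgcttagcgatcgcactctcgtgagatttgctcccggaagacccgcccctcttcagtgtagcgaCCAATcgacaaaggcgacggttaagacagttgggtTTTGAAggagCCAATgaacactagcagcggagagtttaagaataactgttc
Top2a: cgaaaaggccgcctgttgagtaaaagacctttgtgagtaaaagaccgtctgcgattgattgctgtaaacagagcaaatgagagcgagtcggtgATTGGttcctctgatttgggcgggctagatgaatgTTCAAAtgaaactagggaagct

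CCAAT occurred in 21 of the 28 mitotic genes with a promoter (75%), against 35.8% of measured genes and 34.0% of all promoters. TTTGAA occurred in 12 of the 28 (42.9%), against 10.4% of measured genes and 16.2% of all promoters. The median difference was 0.53 with CCAAT and 0.57 without it, and 0.47 with TTTGAA and 0.58 without it.

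Genes of cholesterol synthesis and uptake were also higher. All 19 on the array, of 24 listed, passed the filter, with a median difference of 0.45, and 18 were above control, against 54.2% of all genes. The AS array was the highest of the 4 for 15, against 26.8%. Acat2, of the first step of the pathway, lay at 13.80 on the AS array and 12.85 on the control array, with 13.01 and 13.03 on the ASTspan8 arrays (difference 0.95, and 0.35 at its other probe). Cyp51, a sterol demethylase, lay at 12.05 on the AS array and 11.42 on the control array, with 11.21 and 11.22 on the ASTspan8 arrays. Sqle, squalene epoxidase, differed by 0.51 and Fdps, farnesyl diphosphate synthase, by 0.52. Mvd differed by 0.82, yet its ASTspan8 arrays, at 11.59 and 11.49, matched the AS array at 11.53, above control at 10.71. Stard4, a sterol carrier, differed by 0.87 and by 0.10 at its other probe, and Insig1, which retains the sterol sensor in the ER, by −0.10.

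Most interferon response genes were a little higher than control, and as a group they lay below the ASTspan8 arrays. The median over 31 genes past the filter, of 38 listed, was 0.21. Of these 25 were above control, against 54.2% of all genes, and 6 below it. The control array was the lowest of the 4 for 24, against 32.5%. Over the same genes the mean of the ASTspan8 arrays lay 0.76 above the same control array at the median. Mx1, an antiviral GTPase, lay at 8.52 on the AS array, 8.25 on the control array and 11.19 and 11.06 on the ASTspan8 arrays. Isg15, a ubiquitin-like modifier, lay at 11.23 on the AS array, 10.59 on the control array and 13.15 and 13.13 on the ASTspan8 arrays. In both the AS array was near control and the ASTspan8 arrays apart. Ifit2 had the lowest difference of the list (−0.77). It lay at 9.91 on the AS array, 10.68 on the control array and 10.14 and 10.19 on the ASTspan8 arrays. Outside the list, Oas1e and Ifitm1, of the Oas and Ifitm families, were at least 2-fold lower on the AS array. GAAANNGAA is the core of the interferon-stimulated response element. It occurred upstream of 16 of the 27 list members with a promoter (59.3%), against 6.35% of measured genes and 8.12% of all promoters. The median difference was 0.26 with it and 0.21 without it.

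Chemokines and cytokines lay on both sides of control, around a median of −0.08 over 37 genes. Cxcl10, a chemokine induced by interferon, lay at 12.37 on the AS array and 11.37 on the control array, with 12.91 and 12.97 on the ASTspan8 arrays (difference 1.00). Cx3cl1, a membrane-bound chemokine of endothelium, lay at 15.31 on the AS array and 14.12 on the control array, with 15.34 and 15.35 on the ASTspan8 arrays (difference 1.19). For both the control array was the low one. Il6, Il1rl1 and Il1rn, given above, were the 3 members at least 2-fold lower.

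Other lists had medians nearer to that of all genes, some with members far from it. Cytosolic ribosomal proteins had a median of −0.04 over 69 genes, oxidative phosphorylation 0.00 over 51, tetraspanins and exosome machinery −0.01 over 33, integrins and adhesion genes 0.00 over 19 and collagens and matrix 0.05 over 30. Matrix proteases and their inhibitors had a median of 0.03 over 26 genes, angiogenesis genes −0.04 over 26, hypoxia and glycolysis −0.12 over 29 (−0.37 over the 13 hypoxia response genes, of which 10 were below control) and TGF-beta targets −0.16 over 23. The NF-kappaB subunits and feedback genes had a median of −0.14 over 14 and the glucocorticoid-induced genes −0.12 over 17. Among the glucocorticoid-induced genes 4 were at least 2-fold lower (Lcn2, Dusp1, Angptl4 and Errfi1, the last at −1.25) and 1, Mt1, at least 2-fold higher. Within the antioxidant list, with a median of −0.04 over 23 genes, Sod2, Slc7a11 and Srxn1 (−1.12) were at least 2-fold lower. Among cytosolic heat shock genes, with a median of −0.04 over 17, Cryab differed by −1.19 and Hspa1b by −1.17, the second by −0.17 at another probe.

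**Figure D4:**
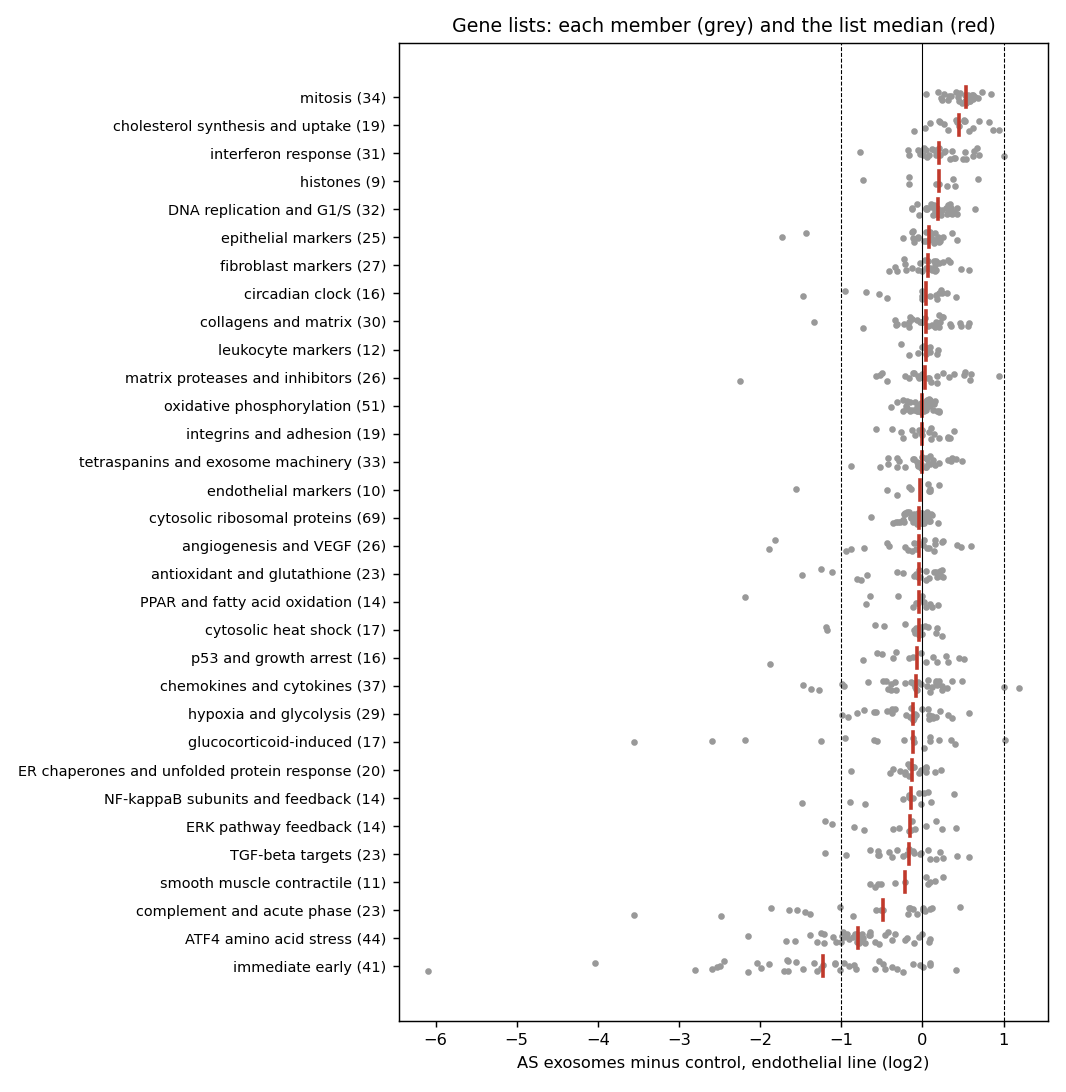
Difference between the AS and control arrays of the EC line in log2 (horizontal axis) for each gene past the filter (grey) in 32 gene lists, with the list median in red and the number of genes in brackets; dashed lines mark 2-fold. Medians run from 0.54 for mitosis to −1.23 for immediate early genes.

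The RF line was a second line exposed to AS exosomes, with its own control array. Whether dose and exposure time matched those of the EC line is not given. There 111 of 11069 genes (1.0%) were higher by 2-fold or more after AS exosomes and 129 (1.17%) lower, and 46.8% of genes were above control. The SD of the differences over probes was 0.391, against 0.308 in the EC line. With 1 array each, the difference between the lines was not tested.

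Immediate early and ATF4 genes lay on opposite sides of control in the 2 lines. In RF the immediate early list had a median of 0.46, with 34 of 41 above control and 11 at least 2-fold higher, and 32 of the genes were lower in EC and higher in RF. The ATF4 list had a median of 0.64 in RF, with 40 of 44 above control and 10 at least 2-fold higher. Fos lay at 8.87 after AS exosomes and 6.50 in control in RF (difference 2.37), against 6.85 after AS exosomes and 12.94 in control in EC. Egr1 lay at 12.27 after AS exosomes and 10.94 in control in RF, against 11.65 after AS exosomes and 14.15 in control in EC. The median level of the immediate early list was 9.93 after AS exosomes and 9.02 in control in RF, against 9.01 after AS exosomes and 11.09 in control in EC. The highest of these 4 values was the EC control array.

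Mitotic genes lay on the same side in both lines. In RF 33 of the 34 were above control, with a median of 0.60, and Cenpf was the exception at −0.07. The other probe of Cenpf was above control in RF, at 9.88 after AS exosomes and 9.12 in control. DNA replication genes had a larger median in RF, 0.64, with 32 of 32 above control, and cholesterol genes one of 0.32, with 15 of 19 above. The complement and acute phase list had a median of −0.06 in RF. Within it C3 was lower in both lines, at 10.67 after AS exosomes and 12.18 in control in RF, as was Hp, at 10.34 and 11.42. Lcn2 lay at 11.47 after AS exosomes and 11.52 in control in RF, without the large difference seen in EC. Mettl7b and Six3, the 2 genes with the largest positive differences in EC, differed by 0.09 and −0.18 in RF, while Fam25a differed by 1.28 in each line. Of the 125 genes at least 2-fold lower in EC, 83 were above control in RF and 41 below, and 27 were at least 2-fold higher there and 7 at least 2-fold lower.

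**Figure D5:**
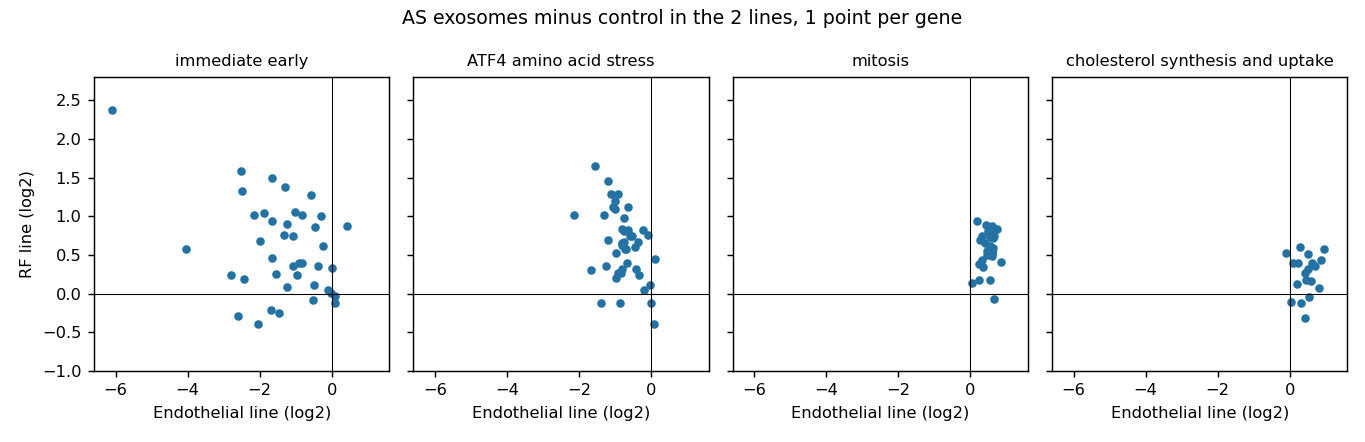
AS exosomes minus control in log2 in the EC line (horizontal axis) and in the RF line (vertical axis), 1 point per gene, for 4 gene lists. Most immediate early and ATF4 genes lie at the upper left, lower in EC and higher in RF, and most mitotic and cholesterol genes at the upper right.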

How the data were processed

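Total RNA of each sample was hybridised to a 1-colour rat Agilent array with Cy3 as dye, per the labels. The authors deposited 1 intensity per probe and array, linear in scale and already normalized; the method of normalization was not stated in the sources used here. Array medians lay between 156.5 and 165.4, and the number of arrays limits the precision. Of 30367 probes 20369 had 1 gene symbol from the platform annotation, updated through the RefSeq table of GRCr8, and 9998 had none. Values below the 1st percentile (0.82% of them) were raised to it, log2 5.96, and log2 values were rounded to hundredths with Python 3.11.15, numpy 2.4.6 and pandas 2.3.3. A probe was kept if its mean within-array percentile exceeded 50 in at least 1 of 9 groups. A gene was taken by the brightest of its kept probes over the 11 arrays.

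Differences of at least 2-fold were counted, and no test was made of 1 array against 1; the counting was checked on simulated data. Named were the 15 genes with the largest difference each way, all list members at least 2-fold apart, up to 6 further members of each list, the cell type markers, Tspan8 and Cd44. Genes outside this rule were chosen after their values were seen. The gene lists, like the comparison itself, were chosen with earlier results of these data known. Alternatives were quantile normalization, other filters and folds, no floor, the mean of a gene's probes, and leaving out either ASTspan8 array. Upstream sequences were those of RefSeq on GRCr8, searched over 250 bases.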

Additional observations from a re-analysis of the deposited data

Results flagged for a closer look

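For 22 of the named genes, each at least 2-fold apart in both lines, AS exosomes minus control ran in opposite directions in EC and RF, and 5 other named genes ran the same way. Named genes were picked in part by their EC difference. Of the 125 genes at least 2-fold lower in EC, 27 were at least 2-fold higher in RF and 7 lower. Of the 15 higher in EC, 2 were at least 2-fold higher in RF and 1 lower. Over all 11069 genes the RF shares were 1.0% higher and 1.17% lower. Each line had 1 array per condition, so these differences between the lines were not tested. Of the 22, 21 were lower in EC and higher in RF. Among transcription factors and other nuclear genes the log2 differences were Fos −6.09 in EC and 2.37 in RF, Egr1 −2.50 in EC and 1.33 in RF, Atf3 −2.15 in EC and 1.01 in RF, Csrnp1 −1.89 in EC and 1.04 in RF, Junb −1.30 in EC and 1.38 in RF and Id1 −1.20 in EC and 2.09 in RF. Among signalling proteins they were Rgs2 −2.53 in EC and 1.59 in RF, Gadd45g −1.88 in EC and 1.25 in RF, Dusp5 −1.66 in EC and 1.49 in RF and Trib3 −1.21 in EC and 1.46 in RF. Among secreted proteins and receptors they were Gdf15 −1.57 in EC and 1.65 in RF, Ptx3 −1.54 in EC and 1.31 in RF, Il1rl1 −1.37 in EC and 2.40 in RF, Il1rn −1.27 in EC and 1.12 in RF, Tgfa −1.12 in EC and 2.06 in RF and Hbegf −1.02 in EC and 1.06 in RF. Among enzymes and transporters they were Sod2 −1.48 in EC and 1.55 in RF, Pycr1 −1.30 in EC and 1.01 in RF, Mthfd2 −1.10 in EC and 1.29 in RF, Slc7a5 −1.07 in EC and 1.12 in RF and Cars1 −1.0 in EC and 1.09 in RF. Nnat ran the other way, at 1.01 in EC and −1.03 in RF. Other probes of Csrnp1, Il1rl1, Pycr1, Tgfa and Nnat in EC were under 2-fold apart.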

How the results depend on the processing

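No gene at least 2-fold apart changed sign under the alternatives run, while 4 list medians and 2 named genes nearer to 0 did: the median of circadian clock genes was −0.48 with the filter at the 75th percentile against 0.05, that of p53 genes 0.01 against −0.07, those of matrix proteases −0.01 against 0.03 and of endothelial markers 0.02 against −0.04 with no filter, and Cd44 differed by 0.06 against −0.04 and Hadha by 0.03 against −0.11 with the mean of probes. At a fold of 1.5 the counts were 275 probes higher, 623 lower, 61 apart between the ASTspan8 arrays, 240 with the AS array apart and 371 with the control array apart. At a fold of 3 they were 2, 53, 3, 9 and 16. With the filter at the 75th percentile, 123 probes were lower, 4 apart between the ASTspan8 arrays and 47 with the control array apart; with no filter, 34 were apart between the ASTspan8 arrays. Leaving out either ASTspan8 array gave 47 to 50 probes with the AS array apart and 85 to 93 with the control array apart. Quantile normalization left all 32 list medians and all 262 named genes close to their values. The deposited arrays already shared the same maximum and had nearly the same median. This alternative therefore had little room to change the values and is a weak check on them. With no filter the median of immediate early genes was −1.08 and that of complement and acute phase genes −0.12, and with the filter at the 75th percentile the medians were −1.20 for complement and acute phase, −0.54 for ERK feedback, −0.43 for smooth muscle and −0.31 for endothelial marker genes. With the mean of a gene's probes, 23 of 262 named genes moved by more than the spread of the ASTspan8 arrays. Among them were Pycr1 (−0.68), Slc7a11 (−0.65), Tgfa (−0.56) and Vwf (−0.40). Only named genes with more than 1 probe past the filter could move, and the rest kept their values by design. Beyond the change in which probes were counted, the cause was not tested. No paired analysis was possible because each side of the comparison had 1 array. A single control array stands behind every EC difference, and levels near the floor of 5.96 have no order.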

Other observations

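Transcripts abundant in exosome RNA and dim in the EC control were set against their levels after AS exosomes. The exosome RNA measured was that of ASTspan8 exosomes, since RNA of AS exosomes was not analysed here. Over 33 genes above log2 12 on both exosome arrays and below 7.5 on the EC control array, limits chosen after the values were seen, the median difference between AS and control was 0.01. The lowest was Podxl at −0.19 and the highest the chemokine Ccl20 at 0.49, followed by the neuronal ubiquitin hydrolase Uchl1 at 0.44, and 17 lay above 0 and 14 below. The 2 ASTspan8 arrays differed from each other by −0.31 to 0.37 over the same genes, and Ccl20 and Uchl1 exceeded that range. Ccl20 lay at 7.70 on the AS array and 7.21 on the control array, with 7.45 and 7.48 on the ASTspan8 arrays. Uchl1 lay at 6.81 on the AS array and 6.37 on the control array, with 6.80 and 6.64 on the ASTspan8 arrays, all below the array median. For both the control array was the lowest, and the genes had been picked for a low control level. Lcn2, low on the AS array, lay at 18.53 and 18.48 in exosome RNA, against 8.72 on the AS array and 12.27 on the control array.

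Of the probes at least 2-fold apart between AS and control, 2 of the 18 higher and 52 of the 191 lower had no gene name here.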
